A study of Mus musculus with 12 samples.

Results

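Cytosolic ribosomal proteins are the proteins of the cell's main ribosomes. Their genes were taken by symbol (Rpl or Rps with a number, the stalk genes Rplp0, Rplp1 and Rplp2, and Rpsa), without ribosomal S6 kinases and predicted genes. The bead arrays annotated 62 such genes, and 56 of them had a detected probe, out of 10908 genes tested in all. Of the 56, 51 are standard ribosomal proteins, 21 of the small and 30 of the large subunit, and 5 are paralogs (Rpl3l, Rpl7l1, Rpl22l1, Rps27l and Rps4l). The other 6 genes (Rpl6, Rpl14, Rpl17, Rpl39l, Rps20 and Rps23) had no probe detected on at least 3 of the 12 arrays and gave no value.

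RNA came from dendritic cells grown from mouse bone marrow, on 12 Illumina bead arrays in 4 groups of 3. Both genotypes carried floxed Ezh2 (Ezh2f/f) on a C57/B6 background. The group labelled wild type had no Cre, and the Ezh2-deficient group, labelled EZH2 KO, had Mx-cre, a Cre driven by an interferon-inducible promoter, so cells that kept an intact allele cannot be told apart in bulk RNA. The marrow was cultured for 6 or 7 days, at first with GM-CSF (20 ng/ml) and IL-4 (10 ng/ml), and from the medium change on day 2 with 10 ng/ml GM-CSF. Immature cells got no LPS, and mature cells got LPS (lipopolysaccharide, a bacterial cell wall component that matures dendritic cells) at 100 ng/ml overnight. Some mature cells, which the labels do not identify, were also kept 6 hours without serum. Nothing states whether replicates are separate animals or cultures, so the p-values measure the spread between these samples, which may be technical.

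Ribosomal proteins and ribosomal RNA are made together, because a ribosome needs both in fixed proportion. In vertebrates the mRNAs of these proteins begin with a run of pyrimidines, the TOP motif, through which the kinase mTOR and the RNA-binding protein Larp1 control their translation and stability as a group. Dendritic cells that meet LPS are known to stop dividing and to turn to presenting antigen and making cytokines.

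Each array detected 17892 to 19611 of 45281 probes, with a median intensity of 108 to 119. The 4 arrays of replicate number 3 ran against their labels and are given apart. With number 3, the immature array of the pair labelled wild type had Il6, a cytokine induced by LPS, at 11.99 (log2), and its mature partner had it at 4.93. Numbers 1 and 2 had Il6 at 5.17 to 6.45 without LPS and at 11.82 to 12.58 with it. Cdkn2a, a cell cycle inhibitor repressed by Polycomb, was higher on the pair labelled wild type of number 3 (8.08 and 7.63) than on its pair labelled Ezh2-deficient (4.70 and 4.57), the reverse of numbers 1 and 2. The Ezh2 probe was at 9.62 and 9.39 in immature and 10.02 and 11.18 in mature Ezh2-deficient cells, against 9.78 and 9.57 immature and 10.26 and 10.97 mature in wild type cells, so it was slightly lower on each Ezh2-deficient array but mature array 2. The sources used here do not place this probe relative to the floxed exons, so it checks nothing. All tests below use the 8 arrays of numbers 1 and 2, 2 a group.

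The start of a ribosomal protein gene is where the pyrimidine run of its mRNA is encoded, so the start windows of genes that the results turn on are shown first (RefSeq, GRCm38.p6, gene strand, 20 bases before and 10 after the annotated start, where a gene with 2 annotated starts is shown at its upstream one). Capitals mark the run CTTTCC, the run CTTTTC, or the shorter TTTCC that lies within the first of them. These are fixed strings and not the TOP motif itself, so a window without capitals does not show that a gene lacks that motif. In Rpl4 the capitals lie before the annotated start. The starts used in these cells were not measured. Rpl4, Rpl22, Rplp0, Rps3, Rps13, Rps16 and Rps4x fell with LPS in both genotypes.
Rpl4 (chr9:64173367-64173396, plus strand): agtCTTTCCTTTTCCtgtgggagcagccgg
Rpl22 (chr4:152324416-152324445, plus strand): atcagcgctgcttctggaatgttccagctc
Rplp0 (chr5:115559447-115559476, plus strand): acgtcgtcttcgggtttcgaggaccgcctg
Rps3 (chr7:99483700-99483729, minus strand): gaacacttgcaagggtcgccgcgctgcgcg
Rps13 (chr7:116334181-116334210, minus strand): cgcgcgagagcaaacgtcggtgagtggcgt
Rps16 (chr7:28350669-28350698, plus strand): taaagcccgcttctgtcgtgacgtagcact
Rps4x (chrX:102189382-102189411, minus strand): aaagtctgaggctgggcggagcaacccagg
Rps27l, the gene that rose with LPS in Ezh2-deficient cells, and 3 large-subunit genes that hold CTTTCC close to the start but were not called on the probe used are set beside them. Those 3 also had lower values with LPS in both genotypes, without overlap, but did not pass the threshold. The probes of Rpl28 and Rpl38 were near the upper limit of intensity, by the rule given below. A dim probe of Rpl38 had changes of -1.40 in wild type and -1.14 in Ezh2-deficient cells. In a fit over all detected probes it passed in both (adjusted p = 0.00611 and 0.0129 by limma).
Rps27l (chr9:66946066-66946095, plus strand): cctctccactcctccccgccgcctctatcc
Rpl28 (chr7:4792945-4792974, plus strand): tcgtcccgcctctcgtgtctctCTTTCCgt
Rpl35 (chr2:39005122-39005151, minus strand): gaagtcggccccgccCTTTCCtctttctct
Rpl38 (chr11:114668560-114668589, plus strand): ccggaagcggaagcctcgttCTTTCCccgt

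Of the 56 measured genes, 47 had an annotated start in the RefSeq table, with 57 starts among them. Within 25 bases either side of a start, 14 of the 47 (29.8%) held at least 1 of these 3 runs on the gene strand, against 10.0% of all 27025 genes of the table. CTTTCC alone was found in 12.8% of the ribosomal protein genes and 2.92% of all genes. Counting both strands, 38.3% of the ribosomal protein genes and 18.3% of all genes held 1 of the 3. These shares describe letters in a window, do not count TOP motifs and were not tested.

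A bead array has an upper limit of intensity, close to which a change can read smaller than it is, so the intensities are given before the changes. The highest intensity on an array was 59591 to 66283, and the probes of Rpl41 and Rps29, small basic proteins of the large and small subunit, were at 100% of it on at least 1 array. A probe was called near the ceiling where it reached 50% of the array's highest intensity on any array. By that rule, 21 genes were near the ceiling, and 35 were not. Just inside were Rps9 (50.3%) and Rpl39 (51.3%), and just outside Rpl32 (48.8%) and Rps26 (48.2%). At the dim end, Rpsa was detected on 6 arrays and Rpl21 on 8, and the other 54 genes on all 12.

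**Figure D1:**
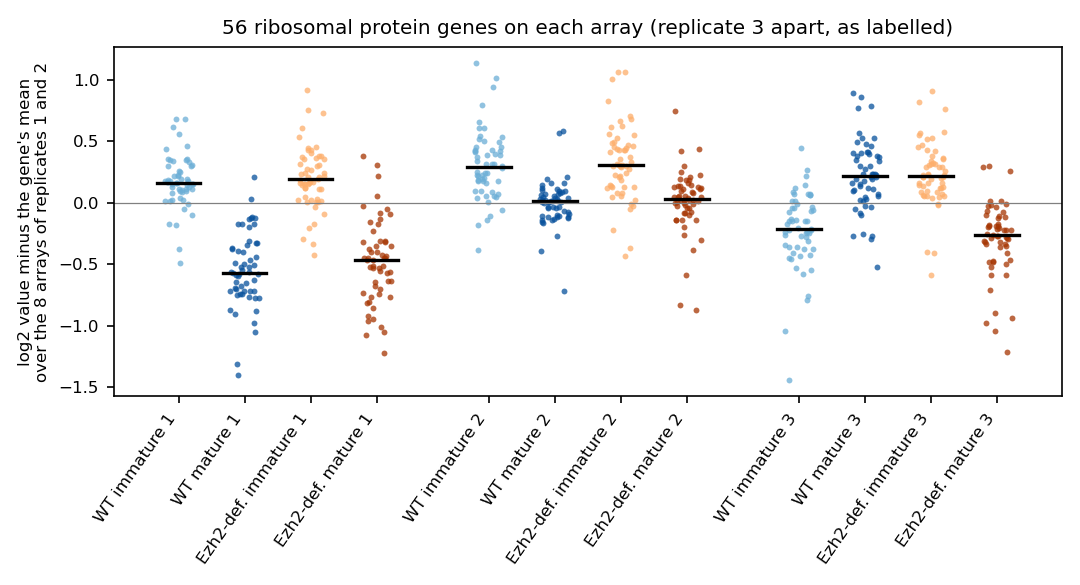
Each point is 1 of the 56 ribosomal protein genes on 1 array, as its log2 value minus that gene's mean over the 8 arrays of replicates 1 and 2 (vertical axis), and black lines are medians. Both mature arrays of replicate 1 sit lowest, at medians of -0.57 and -0.47, while those of replicate 2 lie near 0 (0.01 and 0.03) and the 4 immature arrays of numbers 1 and 2 at 0.16 to 0.31.

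Maturation with LPS lowered a minority of ribosomal protein genes past the threshold, and most of the others had lower values too. In wild type cells, 8 of the 56 genes fell and 0 rose (limma with Benjamini-Hochberg adjustment over all 10908 genes, adjusted p under 0.05), and 22 had an unadjusted p under 0.05. That is 14.3% of the ribosomal protein genes, against a background of 17.7% of all genes called lower and 30.3% called in either direction. In Ezh2-deficient cells, 12 fell, or 21.4% against a background of 20.8% called lower, and 1 rose (background of 15.2% called higher, and 36% in either direction). The sign was more one-sided than the calls. Values were lower with LPS in 53 of 56 genes in wild type cells and in 49 of 56 in Ezh2-deficient cells. The median change was -0.49 (log2, a fall of 1.40-fold) in wild type and -0.46 (1.38-fold) in Ezh2-deficient cells, where all genes had a median of -0.03 in each. Both mature arrays lay below both immature arrays in 41 genes (73.2%, against 36.5% of all genes) in wild type cells and in 35 genes (62.5%, against 37.4%) in Ezh2-deficient cells. They lay above both in 3 genes (5.36%, against 30.8% of all genes) and in 4 genes (7.14%, against 31.8%).

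The size of the fall rested on which mature array was used. The ribosomal protein genes had a median change of -0.71 (1.64-fold lower) in wild type replicate 1 and of -0.28 (1.21-fold lower) in replicate 2. In Ezh2-deficient cells these were -0.67 (1.59-fold) and -0.23 (1.17-fold), so the numbers differed more than the genotypes did. Between the mature wild type arrays, 55 of 56 genes were higher in replicate 2 than in replicate 1, by a median of 0.58. The mature Ezh2-deficient arrays showed the same for 54 of 56 genes, with a median of 0.49. The immature arrays were close, with medians of 0.09 and 0.08, and the median over all genes lay between -0.01 and 0.03 in the 4 groups. As a share of all intensity on an array, the 56 probes together made 4.03% and 4.36% in immature and 2.78% and 3.83% in mature wild type cells. In Ezh2-deficient cells it was 4.13% and 4.45% immature, and 2.96% and 4.04% mature. What separates the mature arrays of the 2 numbers was not tested.

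Leaving out 1 array moved the counts by over 1.5 times in most cases. For LPS in wild type cells, 22 genes fell without mature array 2 (median -0.78, with 14.3% of all genes called lower). Without mature array 1, 2 fell and 1 rose (median -0.19, with 12.1% of all genes called lower). The count was 2 without immature array 1 (11% of all genes lower) and 1 without immature array 2 (9.7%). It was 3 without either immature Ezh2-deficient array (15.4%) and 13 without either mature one (18.3% and 18.2%), arrays that enter only through the shared spread. For LPS in Ezh2-deficient cells, 21 genes fell without mature array 2 (median -0.77, with 16.9% of all genes called lower). Without mature array 1, 3 fell and 2 rose (median -0.17, with 16.5% of all genes called lower). There, 3 were called without immature Ezh2-deficient array 1 (12.8% of all genes lower) or array 2 (13.1%), and 7 without either immature wild type array (18.7%). Without either mature wild type array 17 fell and 1 rose (20.8%). Of the 19 other settings tried, arrays left out included, the calls in wild type cells held in 9 (Rps13) to 18 (Rpl22), and those in Ezh2-deficient cells in 7 (Rpl3) to 18 (Rpl21, Rpl22 and Rps15a). The 19 settings are not separate checks.

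On the arrays of number 3 taken as labelled, the wild type pair had a median change of 0.37, with 47 of 56 genes higher in the array labelled mature. That pair is the one with Il6 high on the array labelled immature. The Ezh2-deficient pair had a median of -0.47, with 52 of 56 genes lower with LPS, between the values of numbers 1 and 2. Cdkn2a on this pair was at 4.70 and 4.57, the level of wild type cells of numbers 1 and 2, so its genotype label is in doubt. With this pair added to the 8 arrays as labelled, 24 genes fell and 2 rose in Ezh2-deficient cells (42.9% lower, against 27.2% of all genes). In wild type cells 18 fell (32.1%, against 19.9% of all genes). With all 12 arrays as labelled, limma called 0 of the 56 and 0 of all 10908 genes in either genotype, with 0 and 25 of the 56 at an unadjusted p under 0.05.

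**Figure D2:**
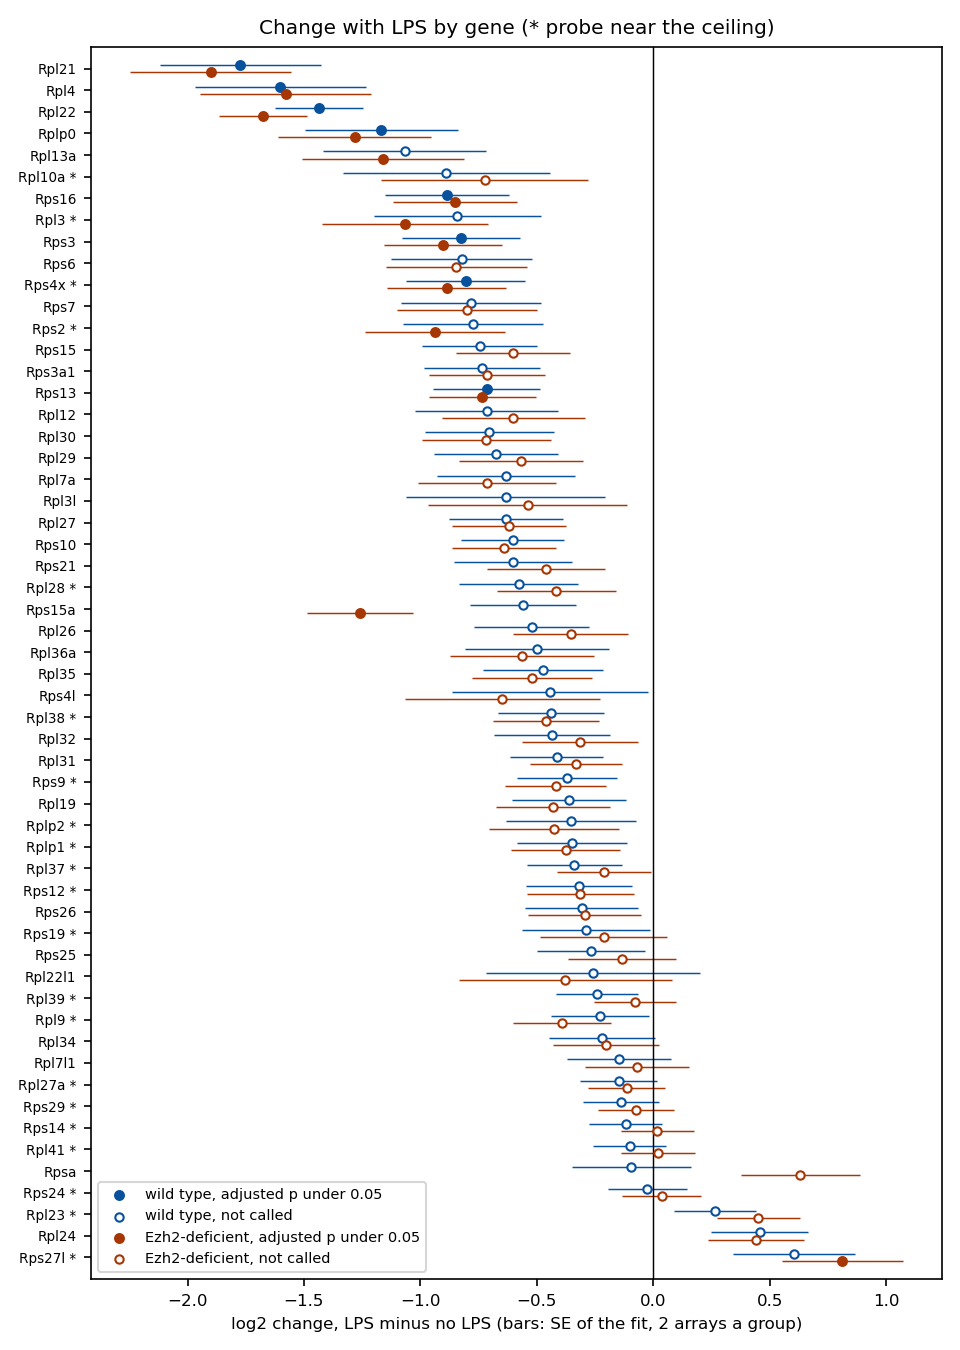
The change with LPS is drawn for each of the 56 genes (horizontal axis, log2, mature minus immature; bars are the SE of the fit with 2 arrays a group; filled points are called; stars mark probes near the ceiling). On these background-corrected values Rpl21, Rpl4 and Rpl22 lie farthest to the left in both genotypes, and Rps27l farthest to the right. Rpl21 is close to background, and without that correction its changes were -0.83 and -0.89.

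In the small subunit, which reads the mRNA, 4 of 21 genes fell in wild type and 6 of 21 in Ezh2-deficient cells, with a median change of -0.60 in each. Of all genes, 17.7% and 20.8% were called lower. Rps3 encodes a protein at the mRNA entry channel that also serves in DNA repair and NF-kB signalling. Its log2 values were 14.44 and 14.64 in immature and 13.43 and 14.003 in mature wild type cells, and 14.59 and 14.63 against 13.41 and 14.003 in Ezh2-deficient cells. Both mature arrays lay below both immature ones in each genotype. Rps3 fell by 0.83 (SE 0.25, adjusted p = 0.0421 by limma) in wild type and by 0.90 (SE 0.25, adjusted p = 0.0264 by limma) in Ezh2-deficient cells. Rps16, whose tail reaches the decoding site, was at 14.41 and 14.41 immature and 13.23 and 13.82 mature in wild type cells, and at 14.41 and 14.40 against 13.21 and 13.89 in Ezh2-deficient cells. The immature arrays were nearly equal, and the mature arrays lay lower and apart from each other. It fell by 0.88 (adjusted p = 0.0385 by limma) and by 0.85 (adjusted p = 0.0386 by limma).

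Rps4x, the X-linked form of the small-subunit protein S4, was at 15.01 and 14.89 immature and 13.85 and 14.44 mature in wild type cells. In Ezh2-deficient cells the values were 15.01 and 14.98 against 13.81 and 14.41, again without overlap. The fall was 1.75-fold (adjusted p = 0.047 by limma) in wild type and 1.85-fold (adjusted p = 0.0291 by limma) in Ezh2-deficient cells, with a probe that is near the ceiling (55.8% of the highest intensity). Rps13 was at 14.03 and 14.05 against 13.04 and 13.61 in wild type cells, and at 14.12 and 14.18 against 13.18 and 13.65 in Ezh2-deficient cells. It is a small-subunit protein needed for ribosome assembly, and its groups did not overlap in either genotype. Its fall was 1.64-fold (adjusted p = 0.0491 by limma) and 1.66-fold (adjusted p = 0.0397 by limma).

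On the probes used, Rps15a and Rps2 were called in Ezh2-deficient cells and not in wild type cells. The difference between genotypes did not pass the test for either. Rps15a, a small-subunit protein with a dim probe, was at 6.97 and 7.35 immature and 6.57 and 6.63 mature in wild type cells. In Ezh2-deficient cells it was at 7.10 and 7.37 immature and at 6.04 and 5.91 mature, the lowest values of these 8 arrays. Its change was -1.26 (SE 0.23, adjusted p = 0.00407 by limma) in Ezh2-deficient and -0.56 (SE 0.23, adjusted p = 0.10 by limma) in wild type cells. Without background correction these were -0.66 and -0.32, so their size rested on that correction. The difference on the corrected values was -0.70 (SE 0.32, unadjusted p = 0.0621, adjusted p = 1 by limma). Over all settings tried it ran from -1.44 to -0.34. Rps2, another protein of the mRNA entry channel, was at 15.68 and 15.80 against 14.58 and 15.34 in wild type cells and at 15.72 and 15.90 against 14.54 and 15.21 in Ezh2-deficient cells. Mature arrays were lower in both genotypes, with changes of -0.77 (adjusted p = 0.0878 by limma) and -0.94 (adjusted p = 0.0419 by limma), and the probe reached 95.9% of the highest intensity. A dimmer Rps2 probe, at most at 41.0% of the highest intensity, had changes of -1.04 in wild type and -1.29 in Ezh2-deficient cells. In a fit over all detected probes it passed in both (adjusted p = 0.0263 and 0.00895 by limma). The lack of a call for Rps2 in wild type cells thus holds for the probe used.

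Rps6, the substrate of the S6 kinases downstream of mTOR, was at 13.70 and 13.81 in immature and 12.58 and 13.29 in mature wild type cells. In Ezh2-deficient cells it was at 13.76 and 13.81 against 12.54 and 13.34. Mature values lay below immature ones, and the changes of -0.82 (adjusted p = 0.0764 by limma) and -0.85 (adjusted p = 0.0619 by limma) did not pass the threshold. Rpsa, a small-subunit protein also described as a laminin receptor, was close to background. Its values were 5.38 and 5.03 against 4.85 and 5.37 in wild type cells and 5.12 and 4.78 against 5.52 and 5.65 in Ezh2-deficient cells. The groups overlapped in wild type cells (change -0.09, adjusted p = 0.813 by limma), and the change of 0.63 in Ezh2-deficient cells was not called (adjusted p = 0.0922 by limma).

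In the large subunit, which forms the peptide bond, 4 of 30 genes fell in wild type and 6 of 30 in Ezh2-deficient cells, with medians of -0.49 and -0.45. These counts stand beside 17.7% and 20.8% of all genes called lower. Rpl21, a large-subunit protein, had a dim probe. Its values were 6.86 and 7.39 immature and 4.85 and 5.86 mature in wild type cells, and 7.16 and 7.25 against 5.24 and 5.38 in Ezh2-deficient cells. Mature values were near background, and the probe was not detected on mature array 1 of either genotype. The deposited intensities were 227 and 276 immature and 111 and 140 mature in wild type cells, and 264 and 270 against 120 and 131 in Ezh2-deficient cells. Rpl21 fell in both genotypes (log2 change -1.77, SE 0.35, adjusted p = 0.00697, and -1.90, SE 0.35, adjusted p = 0.00426 by limma), but the size rested on the background correction. Without that correction the changes were -0.83 and -0.89, smaller than those of Rpl4 (-1.50 and -1.48) and Rpl22 (-1.30 and -1.53) in the same setting.

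Rpl4, a protein that lines the exit tunnel of the growing peptide, was at 11.27 and 11.53 in immature wild type cells and at 9.28 and 10.32 in mature ones. In Ezh2-deficient cells it was at 11.31 and 11.41 against 9.37 and 10.20. Mature array 1 was the lowest in each genotype. Rpl4 fell 3.04-fold (SE 0.37 on the log2 scale, adjusted p = 0.0135 by limma) and 2.99-fold (SE 0.37 on the log2 scale, adjusted p = 0.0122 by limma). Rpl22, which in mice is needed for normal T cell development, was at 10.56 and 10.49 against 9.01 and 9.16 in wild type cells and at 10.63 and 10.95 against 8.93 and 9.29 in Ezh2-deficient cells. Here the mature arrays of the 2 numbers were closer together than the size of the change. Rpl22 fell 2.70-fold (SE 0.19 on the log2 scale, adjusted p = 0.00133 by limma) and 3.20-fold (SE 0.19 on the log2 scale, adjusted p = 0.000533 by limma).

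Rpl13a, which in human myeloid cells also acts off the ribosome to silence inflammatory mRNAs, was at 10.99 and 11.42 against 9.75 and 10.53 in wild type cells. In Ezh2-deficient cells it was at 10.99 and 11.34 against 9.57 and 10.43. Mature values were lower without overlap, by 1.16 in Ezh2-deficient cells (SE 0.35, adjusted p = 0.0339 by limma) and by a change of -1.07 in wild type cells that missed the threshold (SE 0.35, adjusted p = 0.0517 by limma). Rpl3, a protein next to the peptidyl transferase centre, was at 14.70 and 14.89 against 13.46 and 14.45 in wild type cells and at 14.89 and 14.85 against 13.40 and 14.22 in Ezh2-deficient cells. Its change of -1.07 in Ezh2-deficient cells was called (SE 0.36, adjusted p = 0.0497 by limma), and that of -0.84 in wild type cells was not (adjusted p = 0.114 by limma). The difference between the 2 responses was -0.22 for Rpl3, with an adjusted p of 1 by limma.

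The stalk proteins, which recruit translation factors to the large subunit, differed in what could be called. Rplp0, the base of the stalk and a common reference gene, was at 9.76 and 9.87 against 8.23 and 9.06 in wild type cells, and at 9.82 and 9.82 against 8.13 and 8.94 in Ezh2-deficient cells. All 4 mature arrays lay below the 4 immature ones. It fell 2.25-fold (adjusted p = 0.0302 by limma) and 2.43-fold (adjusted p = 0.0181 by limma). Rplp1 was at 15.63 and 15.62 against 14.97 and 15.58, and at 15.65 and 15.68 against 15.08 and 15.49, with changes of -0.35 and -0.38 that were not called (adjusted p = 0.298 and 0.251 by limma). Rplp2 had changes of -0.35 and -0.43 (adjusted p = 0.375 and 0.270 by limma). The probes of Rplp1 and Rplp2 were near the ceiling (84.3% and 62.5% of the highest intensity), and that of Rplp0 was not (1.77%).

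Rps27l, a paralog of Rps27 that is known as a p53 target, was the 1 gene called higher. It was at 14.42 and 14.35 in immature and at 14.94 and 15.46 in mature Ezh2-deficient cells, and at 14.35 and 14.33 against 14.60 and 15.29 in wild type cells. Mature values were higher in both genotypes and highest in replicate 2, on a probe near the ceiling (69.1% of the highest intensity). The rise was 1.76-fold (SE 0.26 on the log2 scale, adjusted p = 0.0432 by limma) in Ezh2-deficient cells, and the change of 0.60 in wild type cells was not called (adjusted p = 0.121 by limma). Without mature Ezh2-deficient array 2 the change was 0.55 and no longer called (adjusted p = 0.193 by limma), nor was it called without either immature array of either genotype. On number 3 as well, Rps27l was higher on the arrays with high Il6 (14.98 and 14.97) than on those with low Il6 (14.19 and 14.32).

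On the probes used, none of the other 4 paralogs was called in either genotype, and each had immature and mature values that overlapped. Rpl3l, a form of Rpl3 that in mice is restricted to skeletal muscle and heart, had changes of -0.63 and -0.54. Its probe was detected on all 12 arrays, at a mean intensity of 1975, and whether it reads Rpl3l alone was not tested. Rpl22l1, the paralog of Rpl22, was at 6.84 and 7.39 against 6.29 and 7.43 in wild type cells and at 6.81 and 6.98 against 5.99 and 7.04 in Ezh2-deficient cells. Its changes of -0.26 and -0.38 (SE 0.46 each) are smaller than the spread between replicates, in contrast to those of Rpl22 given above, though the difference between the 2 genes was not tested. Rpl7l1 had changes of -0.15 and -0.07 on the probe used. A dimmer Rpl7l1 probe, detected on all 12 arrays, had changes of -0.60 in wild type and -1.11 in Ezh2-deficient cells. In a fit over all detected probes it passed in Ezh2-deficient cells (adjusted p = 0.0249 by limma) and not in wild type cells (adjusted p = 0.188 by limma). Rps4l, annotated by RefSeq as a transcribed pseudogene, had changes of -0.44 and -0.65. Of the partner genes, Rpl39, a small protein of the exit tunnel, had changes of -0.24 and -0.08 on a probe near the ceiling.

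Of the 51 standard genes, 2 had higher values with LPS in wild type cells, and neither was called. Rpl24, a protein at the bridge between the subunits, was at 8.52 and 8.87 against 9.21 and 9.09 in wild type cells, and at 8.67 and 9.06 against 9.38 and 9.23 in Ezh2-deficient cells. Mature values were higher in both genotypes, by 0.46 (adjusted p = 0.136 by limma) and 0.44 (adjusted p = 0.138 by limma). Rpl23, which is also known to bind Mdm2, had a change of 0.26 (adjusted p = 0.296 by limma) in wild type and 0.45 (adjusted p = 0.083 by limma) in Ezh2-deficient cells on its chosen probe, and the other probes of the gene did not share this sign.

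Probes of the same gene differed in how far they fell. The 20 standard genes near the ceiling had a median change of -0.33 in wild type and -0.35 in Ezh2-deficient cells, and the 31 others -0.63 and -0.62. Of 14 genes with at least 2 probes detected on all 12 arrays, the dimmest probe had the more negative change in 10 (wild type) and 12 (Ezh2-deficient). The median was -0.43 for the brightest and -0.68 for the dimmest probes in wild type cells, and -0.42 against -0.87 in Ezh2-deficient cells. For Rpl23 in wild type cells, the chosen probe gave 0.26, a similarly bright one -0.25 and a dimmer one -1.06. Rpl38, a protein linked in mice to translation of Hox mRNAs, gave -0.44 on its bright and -1.40 on its dim probe. Rpl31 ranged from -0.42 to -1.53 and Rpl27a from -0.15 to -1.35 over 3 probes each. The order was not fixed: the brightest of the 2 Rps13 probes gave -0.72 and the dimmest -0.49. Probes of 1 gene can also reach different transcripts or copies of it, and neither that nor saturation was tested. The fold changes above hold for the probe used.

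**Figure D3:**
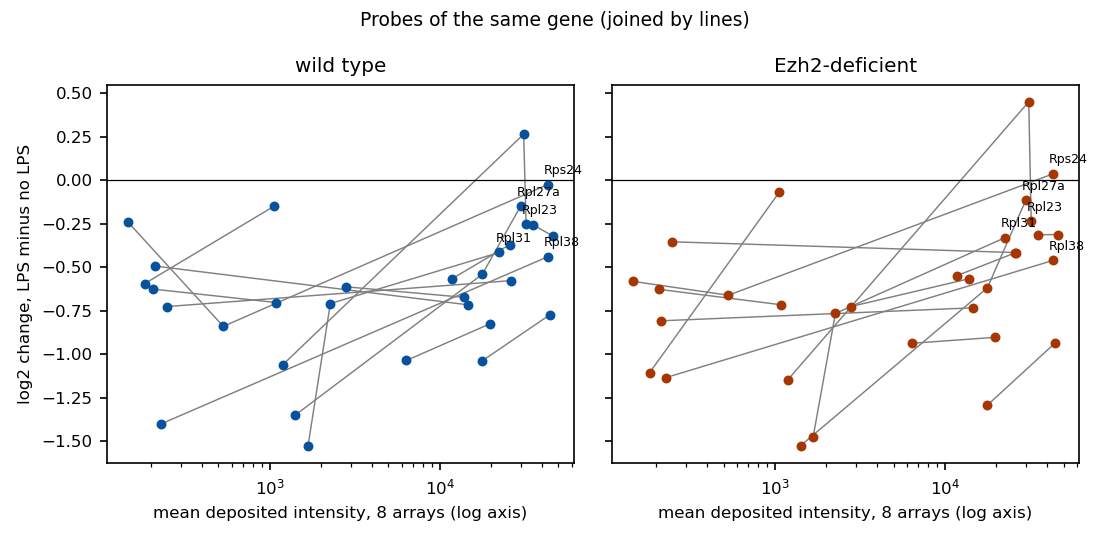
Each point is a probe of 1 of the 14 genes with several probes detected on all arrays, with its mean deposited intensity over the 8 arrays (horizontal, log axis) and its log2 change with LPS (vertical), and lines join probes of a gene. In 10 of 14 genes in wild type and 12 of 14 in Ezh2-deficient cells the dimmest probe lies below the brightest.

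Genes around the ribosome were read from lists by function, beside the same background of 17.7% of all genes lower in wild type and 20.8% in Ezh2-deficient cells. Of 15 measured genes of ribosome-associated proteins and other TOP mRNAs, 6 fell in each genotype and 0 rose, with medians of -0.67 and -0.69. Npm1, a nucleolar histone and ribosome chaperone, was at 13.78 and 13.64 against 12.08 and 12.68 in wild type cells (change -1.33, adjusted p = 0.00275 by limma). Eef1d, a subunit of the factor that reloads elongation factor 1 with GTP, fell most of this list in Ezh2-deficient cells, from 12.71 and 12.84 to 11.14 and 11.63 (change -1.39, adjusted p = 0.00354 by limma). The median of this list was -0.93 in wild type replicate 1 and -0.34 in replicate 2, and -0.98 and -0.44 in Ezh2-deficient cells. The gap between the numbers was thus seen here as in the ribosomal protein genes.

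The machinery that builds ribosomes was lower on both mature arrays to a similar extent. Of 39 ribosome biogenesis genes, 28 fell and 1 rose in wild type cells, and 29 fell and 1 rose in Ezh2-deficient cells, with medians of -1.12 and -1.19. Heatr1, a factor for transcription and early processing of ribosomal RNA, was at 11.55 and 11.71 against 8.32 and 8.72 in wild type cells and at 11.55 and 11.46 against 8.14 and 8.15 in Ezh2-deficient cells. Its log2 changes were -3.11 (SE 0.18) and -3.36 (SE 0.18). Nop58, a core protein of box C/D small nucleolar particles, fell by 2.65 and 2.70. Sbds, which helps release Eif6 from new large subunits, was the 1 gene that rose, from 11.58 and 11.73 to 12.73 and 12.86 in wild type cells. The list's median was -1.22 and -1.07 in wild type replicates 1 and 2, and -1.35 and -1.17 in Ezh2-deficient cells. On the Ezh2-deficient pair of number 3 it was -1.39.

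Of 22 genes of RNA polymerases I and III and their factors, which make ribosomal RNA and transfer RNA, 13 fell in wild type and 14 in Ezh2-deficient cells, and 1 rose in each. The medians were -0.81 and -0.78. Polr1b and Polr1a, the catalytic subunits of RNA polymerase I, had changes of -1.54 and -1.53 in wild type and of -2.11 and -2.12 in Ezh2-deficient cells, and all 4 were called. Gtf3c1, a subunit of the polymerase III factor TFIIIC, was the 1 that rose, by 0.54 and 1.005. Between replicates 1 and 2 the list's median was -0.78 and -0.86 in wild type and -0.81 and -0.84 in Ezh2-deficient cells.

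Of 30 translation factors, 12 fell and 3 rose in wild type cells, and 14 fell and 1 rose in Ezh2-deficient cells, with medians of -0.46 and -0.47. Eif2b3, part of the exchange factor for eIF2, fell by 1.52 and by 1.83, and Eif3l, a subunit of the initiation factor eIF3, had changes of -1.499 and -1.83, both called. Eif2b2, another exchange factor subunit, rose in both genotypes, by 0.78 and 0.70. Of 72 mitochondrial ribosomal proteins, which serve the separate ribosomes of mitochondria, 24 fell and 2 rose in wild type cells, and 31 fell and 4 rose in Ezh2-deficient cells. Their medians were -0.41 and -0.47, near those of the cytosolic genes, with -0.43 in both wild type replicates. Mrpl36 had the largest fall of them in both genotypes (-1.49 and -1.59), while Mrpl14 rose by 0.74 and 0.96.

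Regulators of ribosomal protein synthesis moved both ways. Of 17, 5 rose and 2 fell in wild type cells, and 3 rose and 4 fell in Ezh2-deficient cells, with medians of 0.01 and 0.22. Ddit4, an inhibitor of mTOR complex 1, was at 8.17 and 7.21 against 11.56 and 10.98 in wild type cells and at 8.16 and 7.18 against 11.44 and 11.26 in Ezh2-deficient cells. It rose by 3.58 (SE 0.41) and 3.68 (SE 0.41). Mxd1, which opposes Myc at shared target genes, rose by 1.64 and 1.93. Eif4ebp2, a repressor of cap-dependent initiation that mTOR inactivates, fell by 1.09 and 1.03, and Rheb, the activator of mTOR complex 1, fell by 0.58 in wild type cells. Rptor, the scaffold of that complex, fell by 1.02 in Ezh2-deficient cells, while Mtor itself rose by 0.99 and 1.07.

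**Figure D4:**
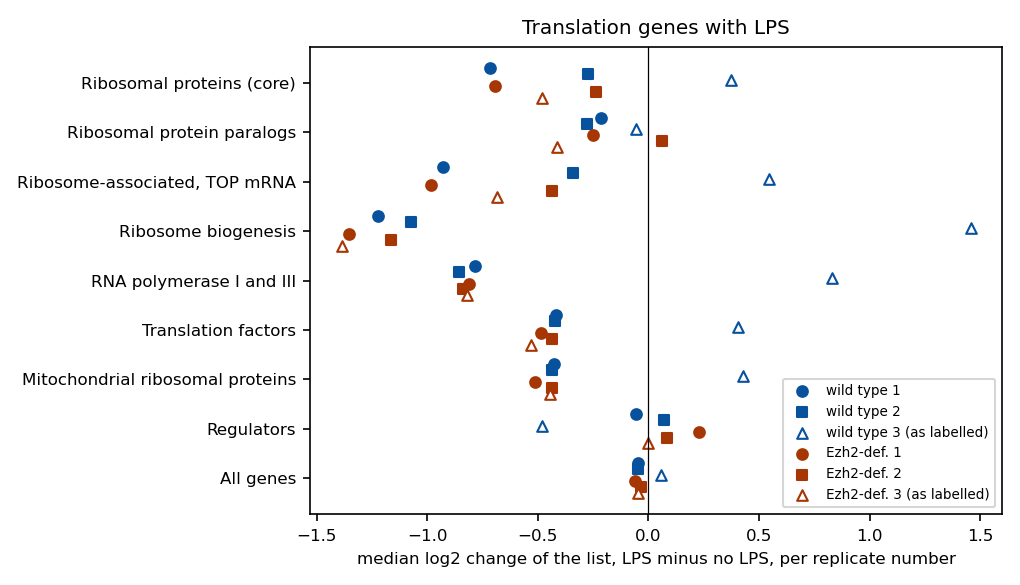
The median log2 change with LPS of each list (horizontal axis) is drawn for each replicate number and genotype, with the arrays of number 3 as open triangles, as labelled. Standard ribosomal protein genes lie at -0.72 and -0.27 in wild type replicates 1 and 2, whereas RNA polymerase genes lie at -0.78 and -0.86.

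Markers of division and of other cell types were read beside the same background. That was 17.7% of all genes called lower in wild type and 20.8% in Ezh2-deficient cells, with 12.6% and 15.2% called higher. Of 9 measured proliferation markers, 8 fell in each genotype and 1 rose in Ezh2-deficient cells, and the log2 of their summed level was 12.90 to 13.03 in immature and 10.51 to 11.22 in mature wild type cells, and 12.36 to 12.77 against 10.51 to 11.25 in Ezh2-deficient cells. Among these markers Mki67, Ccnb1 and Ccnb2 were not measured. Of 9 macrophage markers, 5 fell and 1 rose in each genotype (summed level 14.53 to 14.59 against 13.29 to 13.90 in wild type, and 14.26 to 14.30 against 13.05 to 13.52 in Ezh2-deficient cells). Of 10 neutrophil markers 2 fell in each (13.35 to 14.70 against 12.11 to 13.28, and 12.10 to 14.30 against 11.18 to 12.42). That share was near the background, and the summed levels overlapped in Ezh2-deficient cells. Dendritic cell markers were present, with 13 of 14 measured (Flt3 was not), and 5 rose in wild type and 7 in Ezh2-deficient cells. In each genotype 1 of them fell, Itgax, which encodes CD11c (log2 changes of -1.10 and -1.47). Of 4 measured T and NK cell markers, 2 fell in each genotype, Cd3g and Cd3d of the T cell receptor complex. Their list's summed level was 8.99 to 9.29 against 6.91 to 7.01 in wild type cells and 11.14 to 11.65 against 6.89 to 7.28 in Ezh2-deficient cells. Of 6 mast cell and basophil markers, 1 fell in each genotype, Kit in wild type and Cpa3 in Ezh2-deficient cells (summed level 10.88 to 11.79 against 10.33 to 11.33, and 11.07 to 11.31 against 10.47 to 10.70). That share was near the background too, and the summed levels overlapped in wild type cells. Of 6 B cell markers, Cd79b alone was measured. It rose in Ezh2-deficient cells (change 1.41, adjusted p = 0.0118 by limma) and was not called in wild type cells (0.16, adjusted p = 0.742 by limma). Of 5 erythroid markers, 1 was measured, and it was not called in either genotype. In bulk RNA, fewer cells of a type and less RNA per cell cannot be told apart. The part of these shifts in the values of the ribosomal protein genes was not tested.

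Loss of Ezh2 did not move any ribosomal protein gene past the threshold. In immature cells 0 of 56 were called, with 0 at an unadjusted p under 0.05, against a background of 3 of 10908 genes (0.0275%) by limma. Their changes, Ezh2-deficient minus wild type, ran from -0.34 to 0.35 with a median of 0.03. The 5 smallest p-values belonged to Rpl22 (0.27, SE 0.19), Rpsa (-0.25, SE 0.26), Rpl24 (0.17, SE 0.21), Rps4l (0.35, SE 0.42) and Rpl3l (-0.34, SE 0.43), each with an adjusted p of 1 by limma. Rpl22 had no overlap between genotypes, at 10.56 and 10.49 in wild type and 10.63 and 10.95 in Ezh2-deficient immature cells, and the others overlapped. Leaving out 1 array, the median ran from -0.024 to 0.077. Among the markers of other cell types, Cd3g was higher in Ezh2-deficient immature cells (10.97 and 11.49) than in wild type ones (8.08 and 8.37), with a change of 3.003 (adjusted p = 0.0177 by limma).

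In mature cells 0 of 56 were called and 1 had an unadjusted p under 0.05, against a background of 2 of 10908 genes (0.0183%) by limma. The median was again 0.03, and the range -0.63 to 0.47. The median was -0.20 without wild type mature array 1 and 0.31 without wild type mature array 2, so neither its sign nor its size was stable. The gene at the low end was Rps15a, on the same mature arrays that entered its LPS comparisons, at 6.57 and 6.63 in wild type and 6.04 and 5.91 in Ezh2-deficient mature cells (change -0.63, SE 0.23, adjusted p = 0.966 by limma). Both Ezh2-deficient values were lower, on a dim probe, and over all settings tried the change ran from -0.87 to -0.29. On number 3, the arrays with high Il6 were at 5.70 (labelled wild type immature) and 5.85 (labelled Ezh2-deficient mature). Rpsa (0.47, SE 0.26), Rps14 (0.16, SE 0.16), Rps27l (0.26, SE 0.26) and Rps21 (0.23, SE 0.25) came next, each with an adjusted p of 1 by limma. Averaged over both stages, 0 of 56 were called and 0 had an unadjusted p under 0.05 (background 0.055%), with a median of 0.03 (-0.10 to 0.18 with 1 array left out) and Rps15a (-0.28), Rpl24 (0.17), Rpl22 (0.15), Rpl3l (-0.29) and Rpl36a (0.21) having the smallest p-values. A p that misses the threshold does not show that the genotypes are alike, and with 2 arrays a group the median SE of a genotype difference at 1 stage was 0.25.

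The stalk genes and their neighbours by role gave similarly small values. Rplp0 had genotype changes of 0.01 in immature and -0.11 in mature cells, Rplp1 of 0.04 and 0.01, and Rplp2 of 0.19 and 0.11. Rps6 had 0.03 and 0.01, Rps3 0.07 and -0.01, and Rpl3 0.08 and -0.15. Number 3 as labelled gave genotype medians of 0.38 in immature and -0.43 in mature cells, where numbers 1 and 2 gave 0.03 and 0.01 in immature and 0.05 and 0.03 in mature cells. The immature comparison of number 3 sets an array with low Il6 against one with high Il6, and the mature one the reverse.

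The LPS responses of the genotypes, which share no arrays, were also compared directly. For the difference between them, 0 of 56 genes were called and 0 had an unadjusted p under 0.05 (background 0%, 0 of 10908 genes by limma, and 169 genes at an unadjusted p under 0.05). The median difference was 0.01, with -0.28 without wild type mature array 1 and 0.27 without wild type mature array 2. The smallest p-values were those of Rps15a (given above), Rpsa (0.73, SE 0.36), Rpl22 (-0.24, SE 0.27), Rpl23 (0.19, SE 0.25) and Rpl39 (0.16, SE 0.25). The Rpsa value rests on a probe detected on 6 of 12 arrays.

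**Figure D5:**
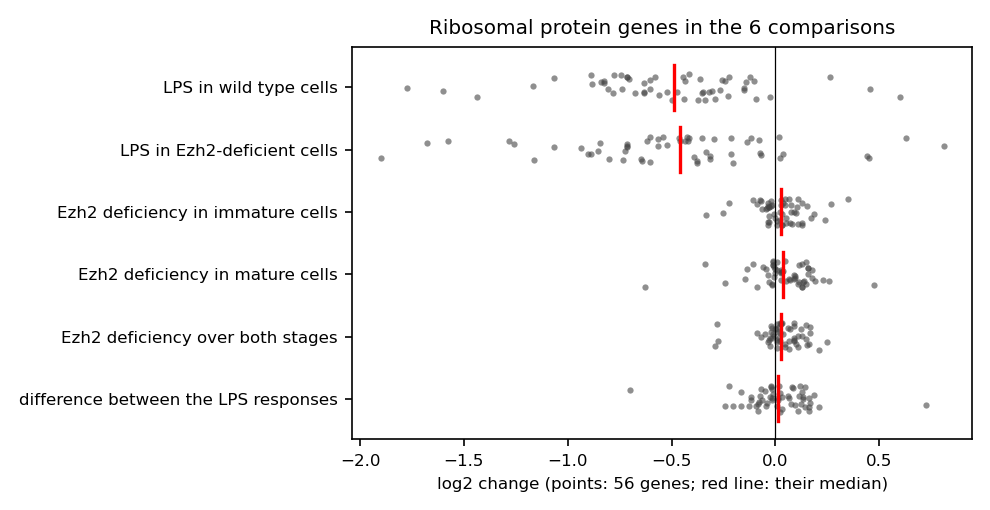
Points are the log2 changes of the 56 ribosomal protein genes in each of the 6 comparisons, and red lines their medians. The LPS comparisons centre on -0.49 and -0.46, and the 4 comparisons that involve genotype on 0.01 to 0.03.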

How the data were processed

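Total RNA was amplified with a biotin kit and hybridised to Illumina bead arrays, per the labels' protocols. Per the file headers, the deposited files hold, for each array and each of 45281 probes, the mean intensity and its detection p-value. The deposited intensities are on a linear scale, with no normalization across arrays. The detection p-values deposited by the authors move in steps of 1 in 936. The authors also deposited a log2 table, which matched quantile-normalized intensities without background correction to within 0.000679 and was used as an alternative. Tools named per the submitters' processing notes are BeadStudio, limma and R 2.15.2, and the steps they served are not given in the sources used here.

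Intensities were background-corrected, quantile-normalized over the 12 arrays and brought to log2 with neqc (offset 16) in limma 3.58.1 (R 4.3.3). Of the probes, 34885 had 1 gene symbol, 18 had several, and 34807 symbols were updated by gene identifier. Probes passed at a detection p under 0.05 on 3 or more arrays (21049 probes), and the passing probe of highest mean stood for its gene, which gave 10908 genes. Group means of the 8 arrays of numbers 1 and 2 were fitted with limma (lmFit and eBayes with an intensity trend), with two-sided p-values adjusted over all genes of a comparison. Calls were made at an adjusted p under 0.05. No pair of arrays was identical. The number of arrays limits the precision. Motif searches used RefSeq start regions (GRCm38.p6).

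The genes, the lists and the naming rule were chosen with earlier results of these data known. Named were, per comparison, up to 6 called genes that rose and 6 that fell, ordered by size (or the 5 smallest p), the stalk genes, Rpsa, Rps3, Rps6, paralogs with their partners, and up to 2 risen and 2 fallen genes of each list. Other genes were named after their values were seen. Alternatives covered normalization, detection filter, choice of probe, replicate block, trend and arrays left out.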

Additional observations from a re-analysis of the deposited data

How the results depend on the processing

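For LPS in wild type cells, 8 ribosomal protein genes were called. The count was 4 with scaling to the 75th percentile (17.6% of all genes were called lower), 4 with no detection filter (8.98% of 19057 genes), 5 without the intensity trend (17.3%), 0 with all 12 arrays as labelled (0%), and 18 with 10 arrays (19.9%; leaving out number 3's wild type pair, a choice made after seeing the data). For LPS in Ezh2-deficient cells, 13 were called (12 lower), against 8 with no filter (10.5%), 0 with 12 arrays (0%) and 26 with 10 arrays (24 lower, against 27.2%). Apart from the block given next, the other planned settings gave counts within 1.5 times. Leaving out 1 array gave 1 to 22 and 3 to 21 genes, and 0 in every genotype comparison. The cause of these shifts was not tested, except that fewer or more arrays entered those fits. The median change stayed below 0 throughout, between -0.58 and -0.18 in wild type and between -0.59 and -0.33 in Ezh2-deficient cells with no array left out singly.

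With the replicate number as a block, 26 genes were called with LPS in each genotype. In wild type cells 25 of the 56 fell (44.6%, against 23.1% of all genes called lower), and in Ezh2-deficient cells 24 (42.9%, against 25.7%). These shares lay above those of all genes, unlike the wild type share in the main fit. Without a block the order turned on the setting. The detected probe of lowest mean gave 17.9% against 13.9% of all genes in wild type and 28.6% against 16.4% in Ezh2-deficient cells. The mean of all detected probes gave 19.6% against 16.7% and 26.8% against 19.8%. Scaling to the 75th percentile gave 7.14% against 17.6% and 12.5% against 20.6%. Leaving out the intensity trend gave 8.93% against 17.3% and 17.9% against 20.3%. The labels do not say that a number marks a shared animal, batch or day, and each comparison has 2 pairs, so the samples share only a number. The differences between arrays 1 and 2 correlated across genes at 0.22 to 0.72 between groups, 0.72 for the mature ones.

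Among single genes, no call reversed, but calls were lost. Of 19 other settings, those in wild type cells held in 18 (Rpl22), 17 (Rpl21), 15 (Rpl4), 13 (Rplp0), 11 (Rps16), 10 (Rps3 and Rps4x) and 9 (Rps13). In Ezh2-deficient cells they held in 18 (Rpl21, Rpl22 and Rps15a), 15 (Rpl4, Rplp0 and Rpl13a), 14 (Rps3), 12 (Rps4x), 11 (Rps16, Rps2 and Rps27l), 10 (Rps13) and 7 (Rpl3). These settings are not separate checks. The deposited log2 values and quantile normalization without background correction are nearly the same data. With all 12 arrays as labelled, none of all genes was called with LPS, so no call could hold there. Values that were not called changed sign as follows. With scaling to the 75th percentile, Rpsa in wild type was 0.058 and Rpl39 in Ezh2-deficient cells 0.048 (LPS). Rpl23 with LPS was -0.24 in wild type, -0.41 in Ezh2-deficient cells and -0.16 for their difference on its dimmest probe, and -0.32, -0.34 and -0.011 on the mean of its probes. With 12 arrays, Rps15a with LPS in wild type cells was 0.13, and the genotype values were -0.23 (Rpl24, immature), 0.075 (Rpl3l, immature) and -0.031 (Rpl24, both stages). Leaving out 1 array, LPS values in wild type cells ranged from -0.36 to 0.17 (Rpsa), -0.43 to 0.13 (Rpl7l1) and -0.83 to 0.31 (Rpl22l1), and in Ezh2-deficient cells from -1.09 to 0.013 (Rpl3l), -0.23 to 0.089 (Rpl7l1) and -0.90 to 0.14 (Rpl22l1). Genotype values ranged from -0.024 to 0.37 (Rpl24), -0.27 to 0.97 (Rps4l) and -0.89 to 0.22 (Rpl3l) in immature and from -0.086 to 0.61 (Rps27l) and -0.065 to 0.53 (Rps21) in mature cells, and the difference between the responses from -0.021 to 0.35 (Rpl39).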
